A study of Mus musculus with 4 samples.

Results

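OL-like tumor cells of HGG-MYCN mice that held much RNA of the human MYCN transgene were compared with OL-like cells of the same tumor that held little. A barcode counted as an OL-like cell with less than 25% mitochondrial UMIs, 5000 to 40000 UMIs, at least 1 UMI of the luciferase reporter FLUC, a UMI of at least 3 of the 6 genes Bcas1, Olig1, Olig2, Sox10, Cldn11 and Cnp, and a UMI of at most 1 of the 4 neuronal genes Stmn2, Neurod1, Stmn3 and Ina. A UMI (unique molecular identifier) tags 1 captured RNA molecule. This rule kept 2666 of the 11834 barcodes, with 362, 215, 186 and 1903 cells for mice 4, 5, 6 and 7. Within each mouse the cells were ranked by the share of human MYCN UMIs in all their UMIs and cut into 3 groups of equal size, called MYCN-low, middle and MYCN-high cells (887 MYCN-high cells over the 4 mice). The groups were thus chosen by the measured level of human MYCN, and everything the rule read (human MYCN, FLUC, the 10 genes and the depth) is given as a description without a test.

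All 4 mice carried the genotype hGFAP-cre::TP53Fl/Fl::lsl-MYCN, heterozygous for the transgene, and no mouse without the transgene was analysed here. Cre is driven by a human GFAP promoter that is active in radial glia, so neurons, astrocytes and oligodendrocytes can all descend from recombined cells. Recombination deletes Trp53 and removes a stop cassette in front of human MYCN and FLUC in the Rosa26 locus. Mice 4 and 5 were 43 days old (P43) and mice 6 and 7 were 70 days old (P70) when their tumors were taken, with 1 library of dissociated brain tumor for each mouse.

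The protein MYCN belongs to the MYC family of transcription factors and binds DNA together with MAX, most firmly at the E-box CACGTG, and the family is known for raising the genes of ribosome biogenesis, translation and nucleotide synthesis in growing cells. Oligodendrocytes arise from precursors that stop dividing, pass through a premyelinating stage and then switch on the genes of myelin, the membrane sheath around axons. High MYC activity is generally associated with growth, low activity with differentiation.

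The libraries held 13106786 to 40621958 UMIs. OL-like cells made up 6.26% to 51.5% of the barcodes, and 15 barcode sequences occurred in more than 1 library, none of them in OL-like cells of different mice. The genes of the Y chromosome summed to 122 CPM in mouse 4, which is labelled female, and to 0.206 CPM in mouse 5, which is labelled male, so both P43 libraries went against their labelled sex, whereas the P70 libraries matched it. Both mice have the same age and genotype, and each was compared only with itself. CPM are the UMIs of a gene scaled to the total of its group. Oligodendrocyte genes outside the rule (14 genes, among them Mbp and Mobp) summed to between 5496 and 23578 CPM in the MYCN-low and MYCN-high cells of the mice.

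MYCN-low cells were shallower than MYCN-high cells. Before matching, the median depth of MYCN-low and MYCN-high cells was 7215 and 25658.5 UMIs in mouse 4, 17516 and 24670 UMIs in mouse 5, 10491 and 22705.5 UMIs in mouse 6, and 11706.5 and 12419.5 UMIs in mouse 7. Equal numbers of cells were therefore drawn from both groups in each of 12 ranges of depth. This left 52, 49, 36 and 555 cells per group in mice 4, 5, 6 and 7, with medians of 15484 and 16188.5 UMIs in mouse 4 and of 11933 and 11921 UMIs in mouse 7. Mouse 6 had the smallest sums, 567805 UMIs in MYCN-low and 564812 UMIs in MYCN-high cells, and mouse 7 the largest, with 7363017 and 7368467 UMIs.

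Human MYCN rose from group to group by construction. It stood at 10.8, 117 and 472 CPM in MYCN-low, middle and MYCN-high cells of mouse 4, and at 254, 823 and 2505 CPM in those of mouse 5. Mouse 6 had 356, 1033 and 2508 CPM and mouse 7 had 192, 534 and 1374 CPM. The MYCN-high cells of mouse 4 thus lay near the middle cells of mouse 7, and a group is high or low only against its own mouse. Cells with genes of myeloid cells, which should lack the transgene, held 8.26, 4.45, 12.3 and 0 CPM of human MYCN (33, 67, 537 and 7 cells). The value of mouse 4 rests on 2 UMIs. The 10.8 CPM in MYCN-low cells of mouse 4 were read in the same UMIs that chose these cells as lowest. Ranked on some of the UMIs and read in the others, MYCN-low cells of mouse 4 held 72.5 CPM. The 10.8 CPM are therefore not read as a level of free RNA.

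**Figure D1:**
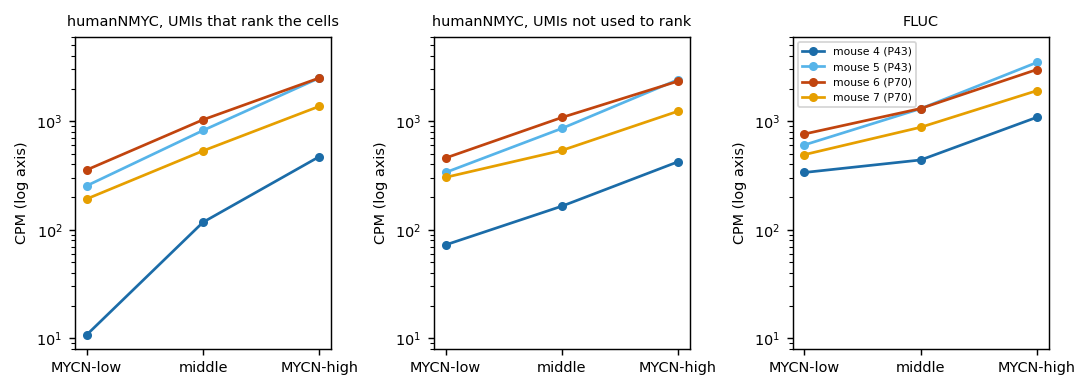
Level of human MYCN in the UMIs that ranked the cells (left), in UMIs not used for the ranking (centre) and of FLUC (right), in CPM on log axes, in MYCN-low, middle and MYCN-high OL-like cells with 1 line per mouse. All rise from group to group in every mouse, and the MYCN-low cells of mouse 4 lie lowest, at 10.8 CPM in the UMIs that ranked them and at 72.5 CPM in the others.

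The limits between the groups were narrow. The last MYCN-low cell and the first middle cell had 41.0 and 41.3 CPM in mouse 4, 483 and 486 CPM in mouse 5, 698 and 699 CPM in mouse 6, and 346 and 347 CPM in mouse 7. In mouse 4, 175 of the 362 cells lay within 1 UMI of this limit, and 29.0% of the cells had no human MYCN UMI at all. In the other mice this share was 4.84% to 6.98%. Levels read in the UMIs that ranked the cells overstate the contrast. Where each human MYCN UMI was assigned at random to 1 of 2 parts, with cells ranked on one part and read in the other, MYCN-high cells were 5.84-fold, 7.18-fold, 5.11-fold and 4.07-fold above MYCN-low cells in mice 4 to 7, against 29.6-fold, 9.73-fold, 6.20-fold and 7.07-fold in the matched cells without this step.

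FLUC, which the transgene carries beside human MYCN, moved with it. Its level in all MYCN-low and all MYCN-high cells, before matching, was 337 and 1088 CPM in mouse 4, 605 and 3485 CPM in mouse 5, 763 and 2998 CPM in mouse 6, and 492 and 1915 CPM in mouse 7. Cell by cell, the shares of human MYCN and FLUC had Pearson's r of 0.88, 0.96, 0.80 and 0.80 over 362, 215, 186 and 1903 cells, a description of cells that share a library and a transcription unit. Spearman's rank correlation of the same shares was 0.61, 0.90, 0.72 and 0.78. The lineage genes that the rule read had means over the mice of 348 and 148 CPM (Olig1), 161 and 110.2 CPM (Olig2), 240 and 225 CPM (Sox10), 553 and 417 CPM (Bcas1), 634 and 381 CPM (Cldn11) and 2161 and 1297 CPM (Cnp) in matched MYCN-low and MYCN-high cells, given only to describe the cells chosen. Endogenous mouse Mycn was near 0, with 12 UMIs in the matched MYCN-low and 1 UMI in the matched MYCN-high cells of all mice together.

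A part of the MYCN-low cells carried little reporter. Fewer than 5 FLUC UMIs were found in 33 of 52, 14 of 49, 5 of 36 and 239 of 555 matched MYCN-low cells of mice 4 to 7, and in 6, 0, 1 and 7 of the MYCN-high cells. The MYCN-low cells with under 5 FLUC UMIs held 147, 156, 275 and 237 CPM of FLUC, against 0 to 19.5 CPM in cells with myeloid genes. The rule asked for at least 1 FLUC UMI in every OL-like cell but not in cells with myeloid genes. Part of this gap was thus set in advance, and no conclusion is drawn from it. Mog, a myelin protein of mature oligodendrocytes, stood at 531, 1535, 0 and 194 CPM in them, against 22.0, 106, 81.5 and 58.2 CPM in MYCN-low cells with 5 or more FLUC UMIs. In mice 4, 5 and 7 cells with the RNA of mature oligodendrocytes were thus concentrated among the MYCN-low cells with the least reporter. Whether these are tumor cells or other oligodendrocytes with a few transgene molecules was not tested, and results are given below also for cells with at least 5 FLUC UMIs and for MYCN-high against middle cells.

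In MYCN-high cells, many genes of ribosome biogenesis and some of translation and nucleotide synthesis were higher than in MYCN-low cells of the same mouse, and many genes of myelin were lower. Of 8471 genes tested, 270 were called higher (3.19%) and 425 lower (5.02%), 8.2% in either direction, by the quasi-likelihood test of edgeR with the mouse as a block and Benjamini-Hochberg adjustment over all genes (two-sided, limit 0.05). The difference had the same sign in 4 of 4 mice for 265 of the 270 genes called higher and for 392 of the 425 called lower. Of all 8471 genes tested, 1547 were higher and 1248 lower in 4 of 4 mice. The shares of 3.19% and 5.02% are the background for the counts of each list below. The median difference of all genes was -0.01 on the log2 scale. Differences are given as log2 of MYCN-high over MYCN-low with the standard error of the fit (n = 4 mice). Leaving out mouse 4, which has the lowest human MYCN, lowered the counts to 110 and 233 genes, against 170 and 292 without mouse 5 and 168 and 301 without mouse 7. Without the mouse as a block no gene was called by edgeR (831 with an unadjusted p under 0.05).

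The counts depended on which cells were compared. With at least 5 FLUC UMIs in every cell, 65, 50, 34 and 413 cells per group could be matched, against 52, 49, 36 and 555 among all OL-like cells, and 12 genes were called higher (0.132% of 9115 tested) and 9 lower (0.0987%), all of them among the genes called in all OL-like cells. With middle cells in place of MYCN-low cells, 34 genes (0.356% of 9559 tested) were called higher and 47 (0.492%) lower, of which 26 and 32 were called in the same direction in the comparison with MYCN-low cells. With FLUC of at least 200 CPM in every cell, 104 genes were called higher and 135 lower of 8735 tested. Both limits on FLUC were set before the ranking, so the remaining cells were ranked anew and all 3 groups changed. All of these comparisons were added after the data had been seen.

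The list of ribosome biogenesis and the nucleolus held the most genes called higher of all lists examined. The nucleolus makes ribosomal RNA and assembles it with proteins into subunits. Of the 44 genes tested, 25 were called higher and none lower, 43 had a difference above 0 and 38 were higher in 4 of 4 mice, with a median log2 of 0.47 against -0.01 for all genes. Of all 8471 genes tested, 4095 lay above 0 and 1547 were higher in 4 of 4 mice. The list was drawn up with earlier results of these data known and is not independent evidence of its direction.

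Ncl encodes nucleolin, one of the most abundant nucleolar proteins. It held 1474, 1835, 1596 and 2214 CPM in the MYCN-low cells of mice 4 to 7 and 3092, 3232, 3661 and 3450 CPM in their MYCN-high cells. Each MYCN-high group lay above every MYCN-low group, and the difference was called (log2 0.89 ± 0.08, adjusted p = 7.76e-05, edgeR). In middle cells Ncl stood at 2200, 2646, 2332 and 2841 CPM, between both groups in every mouse. Mdn1, which is not on the list and was named for its rise, is an ATPase that remodels the precursor of the large subunit. It had 50.7, 67.2, 35.2 and 62.2 CPM in the MYCN-low cells of mice 4 to 7 and 113, 161, 95.6 and 119 CPM in their MYCN-high cells. Here too the groups did not overlap (log2 1.09 ± 0.13, adjusted p = 5.43e-05, edgeR). Nop56, a core protein of the particles that guide methylation of ribosomal RNA, had 264, 336, 333 and 449.8 CPM in the MYCN-low cells of mice 4 to 7 and 445, 567, 715 and 587 CPM in their MYCN-high cells (log2 0.69 ± 0.10, adjusted p = 6.03e-04, edgeR), and the lowest MYCN-high group lay just below the highest MYCN-low group.

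Called genes came from several steps of the path, from transcription of ribosomal RNA to assembly of the subunits. Subunits of RNA polymerase I were called higher with Polr1a (0.64) and Polr1b (0.85) on the log2 scale, and Tcof1, a nucleolar factor that works with this polymerase, with 0.64. Of the proteins that modify ribosomal RNA, Dkc1 (0.55), Gar1 (0.35), Nop2 (0.74) and Nop58 (0.41) were called higher. Nucleolar chaperones and scaffolds followed with Npm1 (0.41) and Nolc1 (0.69), and processing factors with Utp20 (0.99), Rrp12 (0.96), Rrp1b (0.79), Nop14 (0.54), Wdr43 (0.48), Wdr12 (0.51) and Rrs1 (0.67). Gnl3, a nucleolar GTPase known from stem cells as nucleostemin, had 234, 273, 306 and 295 CPM in the MYCN-low cells of mice 4 to 7 and 389.6, 464, 545 and 403 CPM in their MYCN-high cells, groups that did not overlap (log2 0.65 ± 0.09, adjusted p = 2.40e-04, edgeR).

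The rise was smaller where cells with under 5 FLUC UMIs were left out and the others ranked anew. With at least 5 FLUC UMIs in every cell the median of the ribosome biogenesis genes was 0.28, and of the list only Ncl was still called (0.60, adjusted p = 0.0053, edgeR). Of its 44 genes, 25 had an unadjusted p under 0.05 by edgeR there, against 1266 of all 9115 genes tested. Against middle cells the median was 0.15 with 4 genes called. Among cells matched on the cell cycle call as well as on depth, 19 were called higher and the median was 0.42 (2.06% of all genes tested there were called higher and 3.14% lower).

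Genes for the proteins of the ribosome itself were mostly not called. Of 79 tested genes for proteins of the cytosolic ribosome, 2 were called higher and none lower, with a median of 0.04. Of the 79 genes, 60 lay above 0 and 37 were higher in 4 of 4 mice, against 4095 and 1547 of all 8471 genes. Rpl4 had 1839.2, 1539.7, 1683.7 and 1900.7 CPM in the MYCN-low cells of mice 4 to 7 and 2138.2, 1829.8, 2020.1 and 2132.7 CPM in their MYCN-high cells, and Rpl12 had 1907.2, 2111.0, 2315.9 and 2329.2 CPM in the MYCN-low cells of mice 4 to 7 and 2165.7, 2409.5, 2907.2 and 2597.3 CPM in their MYCN-high cells. Both were higher in every mouse by small steps (0.19 and 0.18 on the log2 scale). Together these genes made up 163836 to 238856 CPM along the ranking. In matched cells they summed to 194962, 206721, 217001 and 193176 CPM in MYCN-low cells of mice 4 to 7. In MYCN-high cells they summed to 206806, 219363, 228915 and 196545 CPM.

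Translation factors rose in part. Of 26 genes, 8 were called higher and none lower, with a median of 0.16. They were the initiation factors Eif1a (0.76), Eif3a (0.53), Eif3b (0.43), Eif4b (0.37) and Eif4g1 (0.40), the cap-binding inhibitor Eif4ebp1 (0.49) and the poly(A)-binding proteins Pabpc1 (0.29) and Pabpc4 (0.65). Eif3a, a large subunit of the complex that recruits the small ribosomal subunit, had 365, 505, 338 and 672 CPM in the MYCN-low cells of mice 4 to 7 and 449.8, 764, 664 and 917 CPM in their MYCN-high cells, higher in 4 of 4 mice although the groups of different mice overlapped. Of 20 aminoacyl-tRNA synthetases, Eprs (0.42) and Vars (0.57) were called higher, against 3.19% of all genes tested. With at least 5 FLUC UMIs edgeR called none of the 26 translation factors (median 0.12, 12 with an unadjusted p under 0.05). It called none of the synthetases either (3 with an unadjusted p under 0.05). Against middle cells 1 translation factor (median 0.08) and no synthetase were called.

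The list of the MYC family and partners held 15 tested genes, not all of them partners of MYCN itself. Of these, 4 were called higher and none lower, with a median of 0.34. Mga, a scaffold protein that binds MAX, had 61.5, 97.2, 52.8 and 74.4 CPM in the MYCN-low cells of mice 4 to 7 and 106, 190.2, 133 and 105 CPM in their MYCN-high cells. The groups did not overlap (log2 0.77 ± 0.13, adjusted p = 0.0016, edgeR), and the difference was also called with at least 5 FLUC UMIs (0.63) and against middle cells (0.50). Mnt, a repressor that competes for MAX, differed by 0.72, the ubiquitin ligase Huwe1 by 0.34 and the ATPase Ruvbl1 by 0.49. Max itself had 60.4, 58.1, 51.1 and 57.3 CPM in the MYCN-low cells of mice 4 to 7 and 73.9, 67.7, 49.6 and 69.6 CPM in their MYCN-high cells and did not pass the test (adjusted p = 0.44, edgeR). 

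Supply pathways of growth moved with fewer genes. Of 28 genes of nucleotide synthesis and one-carbon metabolism, 5 were called higher and none lower, with a median of 0.21. Of all genes tested, 3.19% were called higher. DESeq2 called 1 of the 28 higher. With at least 5 FLUC UMIs edgeR called none of the 28 (median 0.09, 6 with an unadjusted p under 0.05). Against middle cells it called none either (median 0.03). Shmt1, which takes a one-carbon unit from serine in the cytosol, had 21.6, 25.4, 14.1 and 44.8 CPM in the MYCN-low cells of mice 4 to 7 and 48.6, 60.4, 60.2 and 74.6 CPM in their MYCN-high cells. All MYCN-high groups lay above all MYCN-low groups (log2 1.02 ± 0.18, adjusted p = 0.0018, edgeR). The others were Cad (0.55), which starts pyrimidine synthesis, and the purine enzymes Ppat (0.56), Gart (0.41) and Atic (0.45). Of 13 genes of amino acid supply and the amino acid response, 3 were called higher, among them the carriers Slc7a1 (0.48) and Slc1a5 (1.02). Of 12 polyamine genes, the synthase Srm was called higher (0.44) and Sat1, which tags polyamines for removal, lower (-0.85). With at least 5 FLUC UMIs edgeR called no gene of amino acid supply or polyamines (3 with an unadjusted p under 0.05 in each list). Against middle cells it called none in either list.

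Few genes of energy metabolism were called. Of 16 genes of glycolysis, the kinase Hk2 (0.86) and the dehydrogenase Ldha (0.35) were called higher, against 3.19% of all genes tested. Of 17 genes of mitochondrial biogenesis, the chaperones Hspd1 (0.37) and Hspa9 (0.51) were called higher, and of the 13 RNAs encoded in mitochondrial DNA none was called by edgeR or DESeq2 (4 and 2 with an unadjusted p under 0.05). The 75 nuclear genes of the respiratory chain had a median of -0.10, with 67 below 0 and 3 called lower, Ndufb11 (-0.37), Ndufs5 (-0.32) and Ndufa3 (-0.38). Of all 8471 genes tested, 4376 lay below 0 and 5.02% were called lower, so these 3 calls are near that share. Of the 75 genes, 20 were lower in 4 of 4 mice, against 1248 of all 8471 genes. The 35 proteasome genes had a median of -0.13, with 30 below 0 and no call by edgeR or DESeq2 (9 and 4 with an unadjusted p under 0.05). With at least 5 FLUC UMIs edgeR called no gene of glycolysis or mitochondrial biogenesis (5 and 4 with an unadjusted p under 0.05). Against middle cells it called none of them either. Medians of the respiratory chain and the proteasome were -0.13 and -0.14 with at least 5 FLUC UMIs, and -0.11 for both against middle cells. Here edgeR called 2 respiratory chain genes lower against middle cells. With at least 5 FLUC UMIs it called none of either list (15 and 9 with an unadjusted p under 0.05).

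The E-box CACGTG, a palindrome that reads the same on both strands, was searched in the promoters of RefSeq (GRCm38.p6, 250 bases before to 50 after each start). It was found for 47 of the 221 matched genes called higher (21.3%), for 35 of the 325 matched genes called lower (10.8%) and for 868 of 6882 matched genes tested (12.6%). Of all genes in the promoter table, 8.09% held it. The median difference of tested genes with the motif was 0.0012, against -0.01 without it. A match says only that these letters are present. The promoters of 4 genes called higher are shown as examples, from genes of different groups, as the 250 bases before the start on the strand of the gene, with the motif in capitals.
Tatdn2, chr6:113696800-113697049, plus strand: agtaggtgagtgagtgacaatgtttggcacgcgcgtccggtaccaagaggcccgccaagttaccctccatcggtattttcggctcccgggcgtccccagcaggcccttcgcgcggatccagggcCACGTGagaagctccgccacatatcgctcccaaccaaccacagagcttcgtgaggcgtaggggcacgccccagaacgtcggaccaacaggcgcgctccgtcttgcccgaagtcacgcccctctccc
Nop2, chr6:125131633-125131882, plus strand: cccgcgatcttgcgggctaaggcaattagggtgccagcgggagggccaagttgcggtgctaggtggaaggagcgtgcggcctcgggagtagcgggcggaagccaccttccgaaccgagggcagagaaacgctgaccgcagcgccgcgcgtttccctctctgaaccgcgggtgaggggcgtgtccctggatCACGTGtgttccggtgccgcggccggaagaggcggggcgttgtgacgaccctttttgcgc
Mnt, chr11:74830674-74830923, plus strand: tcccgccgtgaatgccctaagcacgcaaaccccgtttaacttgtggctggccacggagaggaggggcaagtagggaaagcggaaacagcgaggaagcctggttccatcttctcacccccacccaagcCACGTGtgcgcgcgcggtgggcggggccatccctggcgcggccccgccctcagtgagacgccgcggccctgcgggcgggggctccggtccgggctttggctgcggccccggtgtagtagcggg
Atic, chr1:71556906-71557155, plus strand: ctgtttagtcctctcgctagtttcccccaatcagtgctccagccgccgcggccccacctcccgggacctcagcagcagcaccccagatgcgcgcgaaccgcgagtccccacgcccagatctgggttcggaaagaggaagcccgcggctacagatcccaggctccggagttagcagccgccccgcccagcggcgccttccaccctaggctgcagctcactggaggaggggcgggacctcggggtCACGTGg
The motif lies 126 to 121 bases before the start of Tatdn2, a gene near Rosa26, and 60 to 55 bases before that of Nop2, the methyltransferase of ribosomal RNA. It lies 123 to 118 bases before the start of Mnt, the MAX partner, and 7 to 2 bases before that of Atic, the enzyme of the last steps of purine synthesis.

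**Figure D2:**
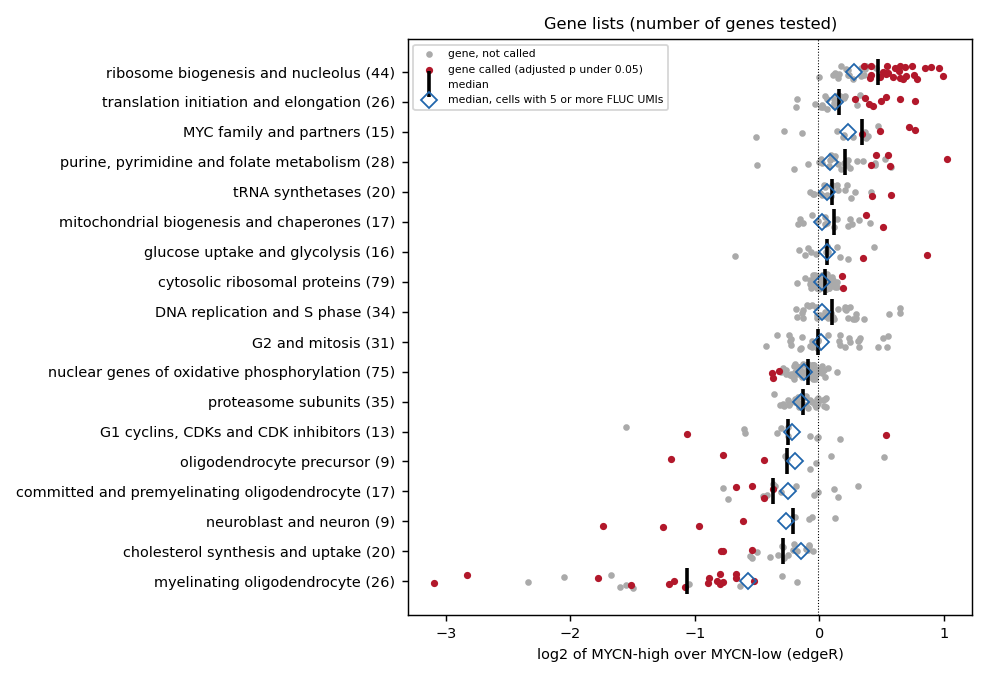
Difference between MYCN-high and MYCN-low cells (log2, x axis) of the tested genes of each list (rows, with the number of genes), with called genes in red, the median as a bar and the median among cells with at least 5 FLUC UMIs as a diamond. The genes of ribosome biogenesis lie to the right with a median of 0.47 and those of myelin to the left with a median of -1.06, and the diamonds of both lie closer to 0.

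Few genes of the dividing cell passed the test. Of 34 genes of DNA replication and S phase, none was called by edgeR or DESeq2 (3 with an unadjusted p under 0.05 by each), with a median of 0.10. Of 31 genes of G2 and mitosis none was called either (3 and 4 with an unadjusted p under 0.05), with a median of -0.01. The 13 cyclins, kinases and inhibitors of G1 had a median of -0.25, with 11 below 0 and 2 above. Among them Ccnd1, the cyclin of early G1, was called higher (66.9, 47.2, 107 and 21.1 CPM in the MYCN-low cells of mice 4 to 7 and 94, 98.8, 138 and 28.1 CPM in their MYCN-high cells, log2 0.53), and Cdkn2d, an inhibitor of its kinases, was called lower (44.2, 40.9, 26.4 and 42.6 CPM in the MYCN-low cells of mice 4 to 7 and 16.9, 20.1, 14.2 and 22.3 CPM in their MYCN-high cells, log2 -1.06). Ccnd1 levels overlapped between mice, whereas each Cdkn2d level in MYCN-high cells lay below each level in MYCN-low cells. Of 10 p53 targets, 1 was called (Phlda3, -0.50), and of 10 apoptosis genes none was called by edgeR or DESeq2 (0 with an unadjusted p under 0.05 by either).

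The share of cycling cells was higher in the MYCN-high cells of each mouse, by 2.34 to 14.3 percentage points. With every matched cell thinned to 5000 UMIs, a cell was called cycling with at least 2 of the 8 genes Birc5, Ccnb1, Cdk1, Cenpf, Mki67, Top2a, Tpx2 and Ube2c. The share was 46.2% (95% Wilson interval 33.3 to 59.5%) in MYCN-low and 59.6% (46.1 to 71.8%) in MYCN-high cells of mouse 4, and 46.9% (33.7 to 60.6%) and 61.2% (47.2 to 73.6%) in those of mouse 5. In mouse 6 it was 36.1% (22.5 to 52.4%) and 50% (34.5 to 65.5%), and in mouse 7, with by far the most cells, 48.6% (44.5 to 52.8%) and 51.0% (46.8 to 55.1%). The intervals cover counting error only. The difference was 10.99 ± 5.78 percentage points (SD, n = 4 mice), higher in 4 of 4 mice. The two-sided p of 0.125, from an exact test that flips the signs of the mice, is the smallest possible with n = 4. The difference was 4.76 points without depth matching (3 of 4 mice higher), 7.52 points ranked by FLUC (2 of 4) and 0.873 points against middle cells (2 of 4). The summed level of the same 8 genes did not go one way, with 1430.4 and 1063 CPM in MYCN-low and MYCN-high cells of mouse 4, 867 and 1470.4 CPM for mouse 5, 451 and 947 CPM for mouse 6, and 1605 and 1507 CPM for mouse 7. No direction is therefore read from the share.

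The number of genes detected per cell was also compared at the same depth. At 5000 UMIs the mean number of genes per cell was 2111, 2116, 2111 and 2232 in MYCN-low cells of mice 4 to 7 and 2175, 2159, 2156 and 2273 in MYCN-high cells. The difference was 48.2 ± 11.2 genes (SD, n = 4 mice), higher in 4 of 4 mice (two-sided p = 0.125 by the same exact test). It was 29.8 genes with another random seed and higher in 3 of 4 mice when ranked within depth bins, and it was 15.3 genes when ranked by FLUC (2 of 4) and 14.2 genes against middle cells (3 of 4).

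The list of the myelinating oligodendrocyte held the most genes called lower of all lists examined. All 26 tested genes had a difference below 0, 16 were called lower, and 24 were lower in 4 of 4 mice, with a median of -1.06. Of all 8471 genes tested, 4376 lay below 0 and 1248 were lower in 4 of 4 mice.

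Mog, a protein on the outer face of myelin that appears late in maturation, had 306, 322, 75.7 and 103 CPM in the MYCN-low cells of mice 4 to 7 and 22.2, 51.2, 0 and 21.4 CPM in their MYCN-high cells. No UMI was found in MYCN-high cells of mouse 6, which allows up to 5.31 CPM, and the groups did not overlap (log2 -2.83 ± 0.36, adjusted p = 0.016, edgeR). Mobp, which compacts myelin, had 809, 1237, 745 and 635 CPM in the MYCN-low cells of mice 4 to 7 and 424, 616, 225 and 283 CPM in their MYCN-high cells (log2 -1.21 ± 0.12, adjusted p = 2.96e-04, edgeR). Each MYCN-high group was below every MYCN-low group. Ermn, a protein of the outer myelin loops, had 311, 592, 111 and 116 CPM in the MYCN-low cells of mice 4 to 7 and 145, 223, 53.1 and 60.4 CPM in their MYCN-high cells, lower in 4 of 4 mice with overlap between mice (log2 -1.17 ± 0.10, adjusted p = 2.05e-06, edgeR). Mbp, the basic protein of myelin, is expressed earlier, and its level fell from 3456, 2834, 2714 and 2595 CPM to 2318, 1742, 1154 and 1605 CPM (log2 -0.83 ± 0.11, adjusted p = 0.0092, edgeR), without overlap.

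Ugt8a, Fa2h and Gal3st1 of the myelin list, which make the galactolipids of myelin, were called lower with Ugt8a (-0.89), Fa2h (-0.80) and Gal3st1 (-0.53). Of 20 genes of cholesterol synthesis and uptake all had a difference below 0, and Hmgcs1 (-0.78), Fdps (-0.54) and Msmo1 (-0.79) were called lower by edgeR, against 1 by DESeq2. With at least 5 FLUC UMIs and against middle cells edgeR called none of the 20 (3 with an unadjusted p under 0.05 in the former). The channel protein Gjb1 had 10.8, 48.1, 24.7 and 24.6 CPM in the MYCN-low cells of mice 4 to 7 and 5.28, 9.14, 3.54 and 6.24 CPM in their MYCN-high cells (log2 -2.07 ± 0.25, adjusted p = 7.76e-05, edgeR), and the chaperone Cryab had 1220, 1117, 951 and 1087 CPM in the MYCN-low cells of mice 4 to 7 and 778, 583, 437 and 633 CPM in their MYCN-high cells (log2 -0.89 ± 0.08, adjusted p = 1.38e-06, edgeR). For both, all MYCN-high groups lay below all MYCN-low groups.

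The fall in myelin genes was smaller where cells with under 5 FLUC UMIs were left out and the others ranked anew, and against middle cells. Mice 4 to 7 held 12679, 17531, 16251 and 12830 CPM of the 26 genes in MYCN-low cells with 5 or more FLUC UMIs. These cells were not ranked anew. All matched MYCN-low cells held 24590.5, 30354, 15776.5 and 16066 CPM, and MYCN-high cells 10915, 9242, 7256 and 9075 CPM. Mog stood at 22.0, 106, 81.5 and 58.2 CPM with 5 or more FLUC UMIs, against 22.2, 51.2, 0 and 21.4 CPM in MYCN-high cells. The part of the MYCN-low cells with little reporter in the fall was not tested. With at least 5 FLUC UMIs in every cell the median of the 26 genes was -0.57 and none was called by edgeR (13 with an unadjusted p under 0.05), and against middle cells it was -0.32 with 5 called. Mog then differed by -1.29 (adjusted p = 0.46, edgeR) and by -0.97 (adjusted p = 0.38). Opalin, a membrane protein of late oligodendrocytes, had 183, 71.8, 14.1 and 83.5 CPM in the MYCN-low cells of mice 4 to 7 and 14.8, 0, 0 and 15.5 CPM in their MYCN-high cells and was still called lower against middle cells (-1.68). Middle cells held 31.1, 0, 0 and 37.6 CPM of Opalin in mice 4 to 7. Mice 5 and 6 can therefore show no fall against middle cells, and this call rests on mice 4 and 7.

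Fewer genes of earlier stages of the lineage were called. Of 17 genes of the committed and premyelinating stage, 4 were called lower and none higher, Gpr17 (-0.44), Enpp6 (-0.54), Fyn (-0.38) and Gpr37 (-0.67), with a median of -0.38. Of 9 tested genes on the list of precursor cells, Gpr17, Nkx6-2 (-0.78) and Tnr were called lower. Gpr17 is on both lists, so the list is not confined to genes of precursors. Tnr, an extracellular matrix protein, had 52.9, 30.0, 234 and 93.7 CPM in the MYCN-low cells of mice 4 to 7 and 27.5, 4.57, 85 and 52.5 CPM in their MYCN-high cells. The level was lower in 4 of 4 mice although the mice differed widely (log2 -1.19 ± 0.18, adjusted p = 9.48e-04, edgeR), and Tnr was among the few genes also called with at least 5 FLUC UMIs (-1.30) and against middle cells (-0.79). Pdgfra, the receptor that defines precursor cells, was near 0 in both groups, with at most 7.06 CPM.

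Of 9 tested neuroblast genes, 4 were called lower and none higher, Tubb3 (-0.62), Elavl3 (-1.26), Mapt (-0.97) and Stmn4 (-1.74), Tubb3 in 3 of 4 mice, with a median of -0.21. Elavl3 binds RNA in neurons, and Mapt and Stmn4 bind tubulin. Outside the lists, and named after their values were seen, are 2 tubulin genes called lower. Tuba1a, a tubulin of young neural cells, had 1645, 1535, 1800 and 1364 CPM in the MYCN-low cells of mice 4 to 7 and 1197, 1053, 1075 and 952 CPM in their MYCN-high cells. The groups did not overlap (log2 -0.60 ± 0.06, adjusted p = 1.55e-05, edgeR). Tubb2b had 415, 349, 431 and 362 CPM in the MYCN-low cells of mice 4 to 7 and 247, 269.8, 354 and 281 CPM in their MYCN-high cells (log2 -0.47 ± 0.09, adjusted p = 0.0032, edgeR), with overlap between mice. Both were also called with at least 5 FLUC UMIs (-0.56 and -0.49). Tubb4b, a tubulin on the list of G2 and mitosis, differed by -0.25 and did not pass the test (adjusted p = 0.13, edgeR). Summed, the 9 neuroblast markers outside the rule held 223, 294, 321 and 343 CPM in MYCN-low and 111, 219, 159 and 198 CPM in MYCN-high cells of mice 4 to 7, and their part in these results was not tested.

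Markers of other cell types were low but not absent. The 8 myeloid markers summed to 280 CPM in MYCN-low and 88.5 CPM in MYCN-high cells of mouse 6, with at most 21.5 CPM elsewhere. The 6 dendritic markers summed to 618 and 198 CPM in mouse 6, and at most 36.0 CPM elsewhere. Cd74, which belongs to this list, was called lower (-1.10), in 3 of 4 mice. The 6 endothelial markers summed to 183 and 87.6 CPM in mouse 4, and to at most 100.4 CPM elsewhere. The 6 astrocyte markers summed to 68.0 and 80.3 CPM in MYCN-low and MYCN-high cells of mouse 4, 94.5 and 57.6 CPM in mouse 5, 58.1 and 377 CPM in mouse 6, and 65.3 and 90.1 CPM in mouse 7, so they were higher in MYCN-high cells of 3 mice. The part of these markers in the results was not tested. Without cells that held 2 genes of another cell type, 182 genes were called higher and 287 lower.

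The 12 genes with the largest rise among those called, with at least 20 CPM in MYCN-high cells and the same sign in 4 of 4 mice, were Srgap3 (1.49), Ttll3 (1.39), Lamb1 (1.29), Ccdc88c (1.27), Prodh (1.26), Nr1d2 (1.24), Thumpd3 (1.20), Tatdn2 (1.16), Mid1 (1.14), Gm8251 (1.13), Mdn1 (1.09) and Fkbp11 (1.09) (adjusted p between 6.09e-08 and 0.0048, edgeR). They include Lamb1, a laminin chain, with 3.24, 4.54, 10.6 and 12.1 CPM in the MYCN-low cells of mice 4 to 7 and 9.5, 17.4, 39 and 25.2 CPM in their MYCN-high cells, Prodh, which breaks down proline, Nr1d2, a repressor of the circadian clock, and Fkbp11, a folding enzyme of the secretory pathway. Lamb1 levels overlapped between mice. Srgap3, Ttll3, Thumpd3 and Tatdn2 lie within 1 Mb of the Rosa26 locus, which holds the transgene. Ccdc88c, a regulator of Wnt signalling, had 12.9, 12.7, 8.81 and 20.8 CPM in the MYCN-low cells of mice 4 to 7 and 38, 44.8, 42.5 and 38.4 CPM in their MYCN-high cells. Here every MYCN-high group was above every MYCN-low group.

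The 12 genes with the largest fall by the same rule were Pdlim2 (-3.69), Opalin (-3.10), Mog (-2.83), Tmod1 (-2.64), Ptprd (-2.30), Eml2 (-2.23), Gjb1 (-2.07), Kcna1 (-2.06), S100a6 (-2.03), Evi2a (-1.78), Stmn4 (-1.74) and Phyhipl (-1.73) (adjusted p between 1.18e-06 and 0.045, edgeR). Pdlim2, a protein that links actin to other partners, had 117, 79, 26.4 and 66.7 CPM in the MYCN-low cells of mice 4 to 7 and 19, 3.66, 0 and 4.21 CPM in their MYCN-high cells. The groups did not overlap, and Pdlim2 was also called against middle cells (-2.06) but not with at least 5 FLUC UMIs (-2.27, adjusted p = 0.22, edgeR). Ptprd, a receptor phosphatase, had 237, 213, 72.2 and 136 CPM in the MYCN-low cells of mice 4 to 7 and 47.5, 44.8, 0 and 33.4 CPM in their MYCN-high cells, and Kcna1, a potassium channel, had 53.9, 42.7, 28.2 and 59.2 CPM in the MYCN-low cells of mice 4 to 7 and 13.7, 0.914, 12.4 and 17.2 CPM in their MYCN-high cells. For neither gene did the groups overlap.

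**Figure D3:**
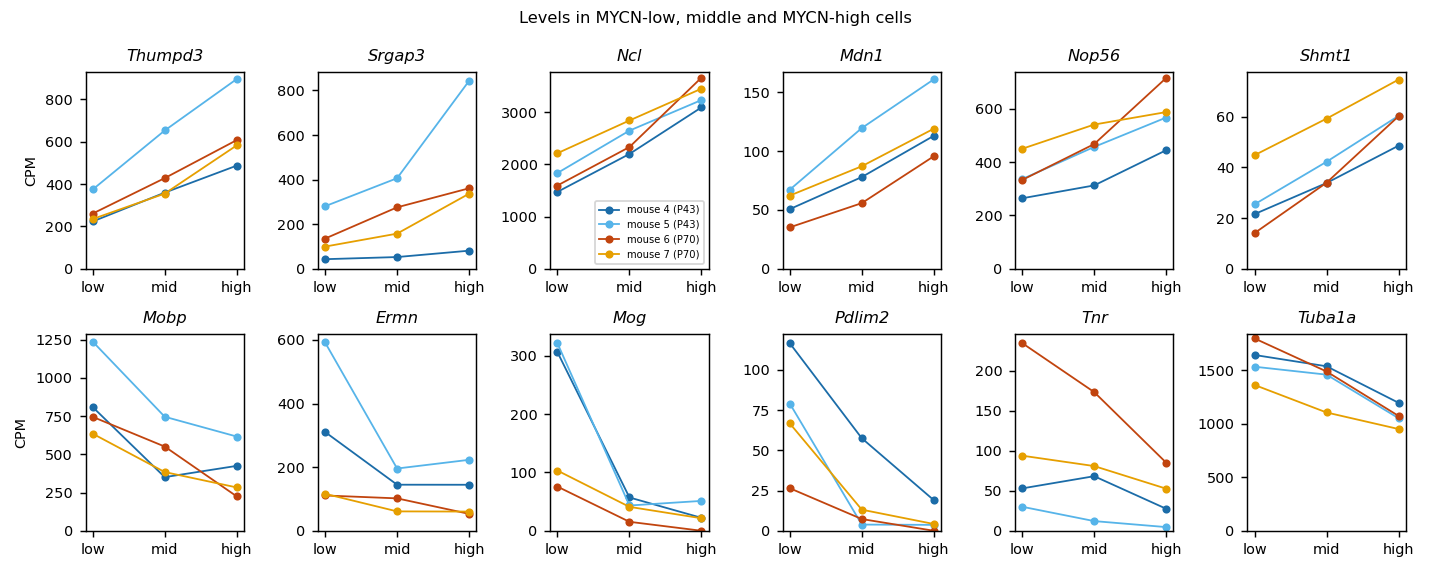
Level in CPM of 12 genes in MYCN-low, middle and MYCN-high cells, with 1 line per mouse. The genes of the upper row are higher and those of the lower row lower in MYCN-high than in MYCN-low cells of every mouse, and Mog, Ermn and Pdlim2 change most between MYCN-low and middle cells in mouse 5.

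Middle cells lay between both groups for nearly all called genes. With at least 20 CPM, this held for 259 of 261 genes called higher and for 384 of 409 genes called lower, where middle cells had covered 58.4% and 62.0% of the log2 step in the median. The middle cells took no part in the test. The genes, however, were chosen for a difference between the ends of this ranking. A level in between is therefore likely by construction for cells from its middle. No share among all genes tested is given for comparison, so the counts are a description only and no conclusion is drawn from them.

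The 12 genes called higher with at least 5 FLUC UMIs in every cell were Gm8251, Ncl, Mga, Znhit6, Mdn1, Srgap3, Thumpd3, Fancd2, Tatdn2, Fosb, D10Wsu102e and Plce1. Of these, Srgap3, Thumpd3, Fancd2 and Tatdn2 lie within 1 Mb of the Rosa26 locus, which holds the transgene. Among all OL-like cells Fancd2 was higher in 3 of 4 mice. The 9 called lower were Shisa4, Tnr, Gm13889, Fkbp15, Fscn1, Tubb2b, Card19, Tuba1a and Ddr1 (both sets named after their values were seen). Znhit6, which helps to assemble the particles that modify ribosomal RNA, had 43.1, 54.5, 56.4 and 52.3 CPM in the MYCN-low cells of mice 4 to 7 and 88.7, 99.7, 124 and 83.7 CPM in their MYCN-high cells in all OL-like cells, without overlap (log2 0.83 ± 0.13, adjusted p = 9.48e-04, edgeR). Ddr1, a receptor for collagen, had 96, 59, 61.6 and 118 CPM in the MYCN-low cells of mice 4 to 7 and 28.5, 17.4, 31.9 and 57.4 CPM in their MYCN-high cells, also without overlap (log2 -1.32 ± 0.16, adjusted p = 8.28e-05, edgeR).

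Few genes of the remaining lists were called. Among 14 chaperones of the endoplasmic reticulum Sdf2l1 was called lower (-0.50), among 13 immediate early genes Fosb was called higher (0.74), and among 12 hypoxia genes Bnip3l (-0.53) and Ndrg1 (-1.26) were called lower, Ndrg1 in 3 of 4 mice. None of 8 genes of antigen presentation and the interferon response, 13 of neural precursors and 9 of astrocytes was called by edgeR (3, 2 and 3 with an unadjusted p under 0.05), and DESeq2 called 1 gene lower in each of these lists.

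Genes close to the transgene lay above 0 in the fit. Rosa26 (Gt(ROSA)26Sor) lies on the minus strand at chr6:113067428-113077333 of GRCm38. Of 21 tested genes within 1 Mb all had a difference above 0, and 7 were called higher (Rad18, Srgap3, Thumpd3, Ogg1, Ttll3, Fancd2 and Tatdn2), against 3.19% of all genes, with a median of 0.61. Ogg1 and Fancd2 were higher in 3 of 4 mice and lower in mouse 6 (-0.39 and -0.30, log2 with 1 CPM added). At 1 to 2 Mb the median of 3 genes was 0.25, with none of the 3 higher in mouse 6 and 1 higher in mouse 7. At 2 to 5 Mb the median of 17 genes was 0.02. At 5 to 10 Mb that of 21 genes was 0.09, with 2 called higher and 2 lower. Beyond 10 Mb on chromosome 6 the median of 332 genes was -0.01.

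On the side of Rosa26 with lower coordinates the rise was alike in all mice. Srgap3, a GTPase-activating protein, had 43.1, 281, 136 and 99.7 CPM in the MYCN-low cells of mice 4 to 7 and 81.3, 843, 361 and 337 CPM in their MYCN-high cells (log2 1.49 ± 0.11, adjusted p = 6.55e-07, edgeR). Thumpd3, an enzyme that methylates transfer RNA, had 223, 374, 261 and 235 CPM in the MYCN-low cells of mice 4 to 7 and 487, 895, 607 and 582 CPM in their MYCN-high cells (log2 1.20 ± 0.08, adjusted p = 6.09e-08, edgeR), with each MYCN-high group above every MYCN-low group. Summed with Rad18, a ubiquitin ligase of DNA repair, these genes were 2.13-fold, 2.31-fold, 2.58-fold and 2.46-fold higher in MYCN-high cells of mice 4, 5, 6 and 7.

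On the other side mouse 6 stood apart. Setd5, the nearest gene there, was 2.57-fold, 2.36-fold and 2.63-fold higher in mice 4, 5 and 7, and 0.888-fold in mouse 6. The 17 genes beyond it up to 1 Mb summed to 3872 and 6918 CPM in MYCN-low and MYCN-high cells of mouse 4, to 6898 and 12128 CPM in those of mouse 5, and to 758 and 1269 CPM in those of mouse 7. In mouse 6 they summed to 3510 and 1850 CPM, 1.90-fold lower in MYCN-high cells, with 3 of the 17 genes higher. Without mouse 6, 19 of the 21 genes within 1 Mb were called higher, with a median of 0.82. Other settings with the mouse as a block also moved the count. It was 4 with another random seed, 13 with matching on the cycling call and 17 with an upper limit of 60000 UMIs. With cells without a human MYCN UMI as the low group, it was 0 of 18 genes with a value, with a median of 1.41. The summed level of these 17 genes was lowest in mouse 7 in both groups.

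**Figure D4:**
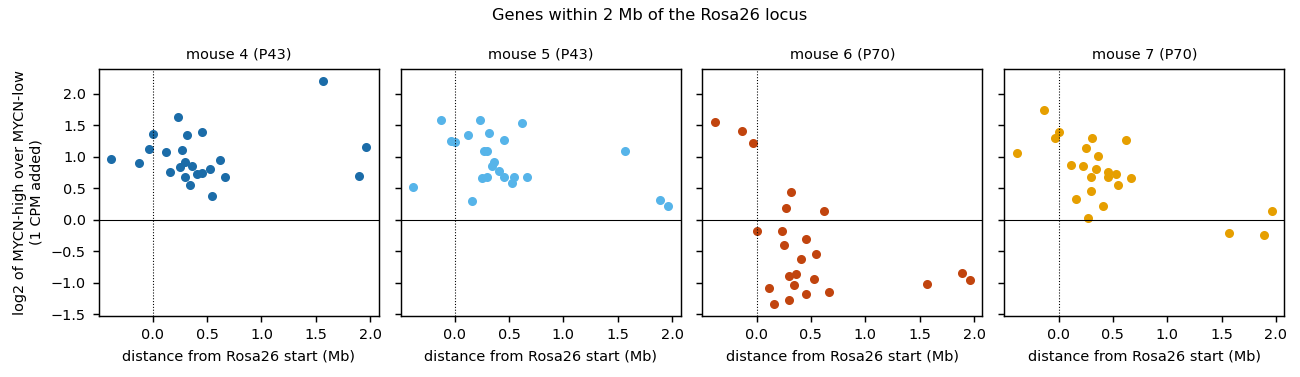
Difference between MYCN-high and MYCN-low cells (log2 with 1 CPM added) of the tested genes within 2 Mb of Rosa26 against their distance from it in Mb, with 1 panel per mouse. The 3 genes on the left of Rosa26 lie above 0 in all 4 mice, and the genes within 1 Mb on the right lie above 0 in mice 4, 5 and 7 and mostly below 0 in mouse 6.

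Cut into 6 steps of human MYCN in place of 3, without matching on depth, the ranking showed where the levels change. The ribosome biogenesis genes summed to 8917, 7413, 10299 and 10583 CPM in the lowest step of mice 4 to 7 and to 14522, 15193, 14925 and 16430.5 CPM in the highest. The myelin genes summed to 35407, 62528, 12912 and 18273 CPM in the lowest step and to 11045, 9587, 6388 and 8089 CPM in the highest. In mouse 4 and mouse 5 most of the fall lay between the first and second steps (35407 to 13634 CPM and 62528 to 13440 CPM), whereas in mouse 7 each step was below the one before. The S phase genes stayed between 1006 and 2439 CPM throughout.

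**Figure D5:**
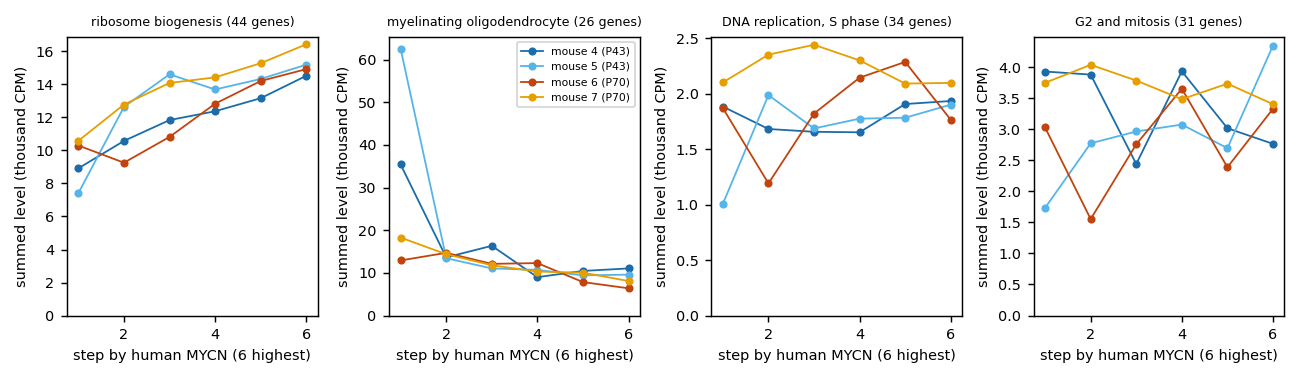
Summed level (in units of 1000 CPM) of the genes of ribosome biogenesis, myelin, S phase and mitosis in 6 steps of OL-like cells ordered by human MYCN, with 1 line per mouse. The highest step lies above the lowest for ribosome biogenesis and below it for myelin in every mouse, with the drop of myelin genes in mice 4 and 5 at the first step, and the cell cycle genes show no common slope.

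The difference between MYCN-high and MYCN-low cells was compared between the ages by an interaction term. Of the genes tested, 5 (0.059%) were called by edgeR, and none by DESeq2 or without depth matching, where 68 and 424 genes had an unadjusted p under 0.05. Scd2, a desaturase of fatty acid synthesis, had 494 and 240 CPM in MYCN-low and MYCN-high cells of mouse 4 and 924 and 325 CPM in those of mouse 5, whereas it had 257 and 289 CPM in mouse 6 and 355 and 342 CPM in mouse 7. The tetraspanin Cd81 likewise fell at P43 (458 to 112 CPM and 395 to 131 CPM) more than at P70 (284 to 218 CPM and 194 to 140 CPM). Each age was represented by 2 mice, each in 1 library.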

How the data were processed

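Tumors of 4 mice were profiled with 10x Genomics 3′ chemistry, 1 library per mouse. The deposited values are raw UMI counts per gene and barcode, which the authors made with Cell Ranger 6.0.2 on mm10 extended by FLUC and humanNMYC, the feature of human MYCN, without normalization. Molecules are counted near the 3′ end of an RNA.

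OL-like cells were chosen and cut into MYCN-low, middle and MYCN-high groups within each mouse as described above, matched on depth in 12 log-spaced bins (seed 1), and their counts were summed per mouse and group (8 sums). The replicate is the mouse (n = 4), and the groups of a mouse come from the same library, which is the pairing used as the block. Rule genes were left out of the tests. Sums were tested with edgeR 4.0.16 in R 4.3.3 (TMM, filterByExpr, robust quasi-likelihood fit, Benjamini-Hochberg, limit 0.05), and age by an interaction term. Tested on simulated data at these depths, this fit recovered 42.1% of 1.5-fold, 92.3% of 2-fold and 100.0% of 4-fold changes. Cycling shares and genes per cell were compared over mice by exact sign-flip permutation tests on cells thinned to 5000 UMIs. Levels of middle cells are those of all middle cells without matching. No doublet caller was run, and the limit of 40000 UMIs and a variant without cells holding 2 genes of another cell type stand in for it.

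The cells, the comparison and all gene lists were chosen with earlier results of these data known, so lists are described by counts and medians only. Named genes are the 12 largest rises and 12 largest falls among called genes with at least 20 CPM in the higher group and the same sign in 4 of 4 mice, members of the lists, and genes stated to be chosen later. Positions came from GENCODE vM21 (GRCm38) and promoters from RefSeq (GRCm38.p6). Alternatives were DESeq2 1.42.0, other scaling and filters, other limits on cells, other rankings, no matching, thinning, another seed and leaving out each mouse. Results of a few genes are not reported here.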

Additional observations from a re-analysis of the deposited data

Results flagged for a closer look

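Differences by mouse were checked for a mouse far from the others among 88 items, the per-cell measures, named genes and genes near Rosa26, and 7 were flagged, where chance flags about 1 in 20. The cycling share was 2.34 points higher in MYCN-high cells of mouse 7, against 13.5, 14.3 and 13.9 points in mice 4, 5 and 6. Genes per cell rose by 64.8 in mouse 4, more than in the others. The log2 differences by mouse (1 CPM added) of Ttll3 (0.45), Mid1 (2.13), Ptprd (-6.19) and Setd5 (-0.17) were far from the others in mouse 6, and that of Tmod1 (-5.26) in mouse 5, where the MYCN-high cells had no UMI. Ptprd had no UMI in MYCN-high cells of mouse 6 either, which allows up to 5.31 CPM.

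The difference between MYCN-high and MYCN-low cells differed between P43 and P70, with 2 mice each, for 5 genes (edgeR interaction, P70 minus P43, log2). Scd2 (1.29, adjusted p = 0.016) and Cd81 (1.34, adjusted p = 0.019) fell more at P43. Snhg11 (-1.97, adjusted p = 0.047), a long noncoding RNA, rose from 46.4 to 129 CPM in mouse 4 and from 40.0 to 111 CPM in mouse 5, and went from 61.6 to 23.02 CPM in mouse 6 and from 49.2 to 42.1 CPM in mouse 7. Tgfbi (-1.46, adjusted p = 0.047), a secreted matrix protein, went from 90.6 to 145 CPM and from 67.2 to 107 CPM at P43, and from 109 to 62.0 CPM and from 73.2 to 43.8 CPM at P70. Cdkn1c (-3.02, adjusted p = 0.047), an inhibitor of cell cycle kinases, had 5.39 and 0 CPM in mouse 4 and 510 and 484 CPM in mouse 5, so its value at P43 rests on mouse 5, and it went from 229 to 40.7 CPM in mouse 6 and from 41.7 to 3.39 CPM in mouse 7. None of the 5 was called by DESeq2 or without depth matching.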

How the results depend on the processing

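The mouse as a block decided the calls. Without it, 0 genes were called higher or lower by edgeR (831 with an unadjusted p under 0.05, against 1936 with it). Against 270 genes higher and 425 lower of 8471 tested, DESeq2 called 117 and 236, thinned cells gave 129 and 155 of 4246 tested, 4 groups in place of 3 135 and 226, a lower limit of 8000 UMIs 142 and 205, and cells without a cell cycle gene 37 and 158 of 1946 tested. Cells without a humanNMYC UMI as the low group gave 0 and 1 of 5227 tested (701 with an unadjusted p under 0.05). Mitochondrial UMIs under 10% gave 166 higher, no filter on genes 658 lower of 16056 tested and another random seed 278 lower. Of the settings chosen after seeing the data, at least 5 FLUC UMIs gave 12 and 9, FLUC of at least 200 CPM 104 and 135, middle cells as the low group 34 and 47, and matching on the cycling call 172 and 262. Leaving out 1 mouse gave 110 to 243 higher and 233 to 377 lower genes, with 110 and 233 without mouse 4, 170 and 292 without mouse 5, and 168 and 301 without mouse 7. Age calls fell from 5 to 0 with DESeq2 (68 with an unadjusted p under 0.05) and to 0 without depth matching (424). Cad turned to -0.027 against middle cells and Phlda3 to 0.0027 with at least 5 FLUC UMIs. Against cells without a humanNMYC UMI, Gpr17 turned to 0.17, Enpp6 to 0.078 and Tubb2b to 0.012. The cause was not tested in any of these. Over the genes and measures named, planned settings left 1298 values on the same side of the threshold, moved 368 below it and 24 past it, and reversed 3. Settings chosen after seeing the data left 170 on the same side, moved 156 below it and 9 past it, and reversed 2. The sums of mouse 6, at 564812 to 567805 UMIs, limit the smallest groups, and 1 library per mouse leaves mouse and library inseparable.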

Other observations

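Ranking the same cells by FLUC in place of human MYCN gave 262 genes higher and 426 lower, with Ncl at 0.62 and Mog at -3.08 on the log2 scale. Both RNAs come from the same transgene, so this is no independent ranking.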
